A study of Mus musculus with 11 samples.

Results

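The respiratory chain genes of both genomes were followed across 11 mouse high-grade gliomas. The mitochondrially encoded members were the 12 protein-coding genes on the mitochondrial chromosome in the count table. The nuclear members were the 91 protein-coding genes whose symbols begin with the family names Ndufa, Ndufb, Ndufc, Ndufs, Ndufv, Uqcr, Cox4 to Cox8 or Atp5, or are Sdha, Sdhb, Sdhc or Sdhd. Together these made 103 of the 27687 genes in the table, of which 19328 were protein-coding.

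Oxidative phosphorylation passes electrons from NADH and succinate through complexes I to IV of the inner mitochondrial membrane to oxygen, and ATP synthase, counted as complex V, uses the proton gradient that results. Complexes I, III, IV and V are built from subunits of both genomes, whereas complex II is wholly nuclear. The mitochondrial genes are transcribed as long polycistronic RNAs from both strands of the circular genome and cut at the tRNAs between them, while each nuclear gene has its own promoter.

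RNA was sequenced from 9 tumours labelled as carrying a prolonged knockdown of Ezh2, the methyltransferase of Polycomb repressive complex 2, and from 2 control tumours labelled as having none. All 11 grew in the brains of NOD-SCID mice, which lack T and B lymphocytes but keep macrophages and neutrophils, after injection of glioma initiating cells (GICs). In both groups these had been subventricular zone neural stem cells from 7-day-old mice with conditional p53;Ink4a/Arf;Krasv12;LucR alleles, recombined in culture with a lentiviral CMV-Cre, and infected with the doxycycline-switched hairpin FH1-tUTG-shEzh2. For both groups the labels give doxycycline at 2 mg/ml with 1% sucrose in the drinking water, whereas the design text speaks of treatment with or without it, so effects of drug and hairpin cannot be told apart. Tumours are numbered by the labels' replicates, which nothing in the labels ties to separate cell preparations, so the p-values cover the spread among these tumours, which may be technical, and nothing wider.

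Each library held between 11209233 and 18638382 counts over genes. Ezh2 was at 18.7, 14.9, 30.4, 10.6, 14.6, 11.2, 8.31, 7.27 and 30.1 CPM (counts scaled to library size, with TMM factors unless stated otherwise) in knockdown tumours 1 to 9, against 45.3 and 52.7 CPM in control tumours 1 and 2. It fell by 1.59 ± 0.44 on the log2 scale (SE; edgeR's quasi-likelihood test with Benjamini-Hochberg adjustment over all genes, adjusted p = 0.023), and all 9 knockdown tumours lay below both controls. Without control 1 or control 2 the fall was 1.70 or 1.48 and not called. The tumours were mixed tissue, and the levels of several sets of cell type markers differed between the groups. The summed level of 11 macrophage or microglia markers ran from 382 to 733 CPM in the knockdown tumours, against 904 and 1872 CPM in the controls, and that of 7 oligodendrocyte markers from 280 to 438 CPM, against 132 and 106 CPM. Of 9 neural stem cell or glioma markers, 2 rose and 5 fell, and all 7 tested neutrophil markers fell, where 23.3% of all genes tested were called in either direction. The 8 skeletal or cardiac muscle markers summed to between 1.33 and 2.88 CPM in the knockdown tumours, against 2.08 and 1.13 CPM in the controls, and 1 of them, Myh2, was at 0 in all 11 libraries. Fewer cells of a type and less RNA per cell cannot be told apart in such samples, and the part of the mixture in the results below was not tested.

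The mitochondrial genes lie close together and in places overlap, which bears on what a count per gene can show. The longest such stretches among the members are printed from the GRCm38 reference, whose mitochondrial gene coordinates matched those of the table, because the genes on either side of them share sequence. In the first, capitals mark the start codon of mt-Atp6 and the stop codon of mt-Atp8, which read the same strand in different frames. The second is the end of mt-Nd5 on the heavy-strand transcript, read in the other direction as the end of mt-Nd6.
mt-Atp8 and mt-Atp6, chrMT:7927-7969, plus strand: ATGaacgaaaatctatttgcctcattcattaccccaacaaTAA
mt-Nd5 and mt-Nd6, chrMT:13552-13565, plus strand: ttaatctcgagtaa
The first stretch is 43 bases long and makes up 21.1% of mt-Atp8. The second is 14 bases long. In all, 8 of the 12 mitochondrial members and 25 of the 91 nuclear ones overlap another gene model of the table, and the use of strand in counting is not given in the sources used here, so reads there cannot be assigned with certainty.

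The promoters of the nuclear members held the element that nuclear respiratory factor 1 (NRF1) is known to bind in a larger share than promoters at large, by a description with no test. RefSeq promoter windows (GRCm38.p6, 250 bases before to 50 after the start) were found for 74 of the 91 nuclear members, 71 by symbol and 3 through a synonym. The element, searched on both strands as GCGC, then A and any base, then GCGC, was in 19 of their 80 promoters (23.75%), those of 18 genes, against 1512 of all 32851 promoters (4.60%). For comparison, CCGGAAGT, the element of ETS factors such as the GA-binding protein, was in 6.25% of member promoters and in 3.89% of all promoters, CACGTG in 11.25% and 7.15%, and CCAAT in 43.75% and 37.4%, each on either strand. None of these motifs contains another, though matches may overlap at their ends. A match describes letters and not a bound site.

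Of the 7 nuclear members that passed the test between the groups, Atp5g3 and Ndufa5 held the NRF1-type letters, and 5 did not hold them in the windows searched. Both are printed with the match in capitals, followed by Cox6b2, the called gene with the greatest fold change, whose window had no match. The match began at base 263 of the Atp5g3 window and at base 225 of the Ndufa5 window.
Atp5g3, chr2:73911277-73911576, minus strand: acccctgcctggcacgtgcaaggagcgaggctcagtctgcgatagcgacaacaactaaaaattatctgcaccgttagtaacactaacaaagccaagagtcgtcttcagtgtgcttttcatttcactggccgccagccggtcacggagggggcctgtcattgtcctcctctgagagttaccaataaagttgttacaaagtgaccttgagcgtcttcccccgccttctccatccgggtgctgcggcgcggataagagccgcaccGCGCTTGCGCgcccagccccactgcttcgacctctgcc
Ndufa5, chr6:24527641-24527940, minus strand: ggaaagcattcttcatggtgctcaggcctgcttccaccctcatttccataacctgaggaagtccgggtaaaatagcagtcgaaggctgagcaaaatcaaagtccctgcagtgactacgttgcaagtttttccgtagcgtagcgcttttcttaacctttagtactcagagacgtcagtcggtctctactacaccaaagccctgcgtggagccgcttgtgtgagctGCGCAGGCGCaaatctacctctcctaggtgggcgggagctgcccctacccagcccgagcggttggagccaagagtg
Cox6b2, chr7:4753045-4753344, minus strand: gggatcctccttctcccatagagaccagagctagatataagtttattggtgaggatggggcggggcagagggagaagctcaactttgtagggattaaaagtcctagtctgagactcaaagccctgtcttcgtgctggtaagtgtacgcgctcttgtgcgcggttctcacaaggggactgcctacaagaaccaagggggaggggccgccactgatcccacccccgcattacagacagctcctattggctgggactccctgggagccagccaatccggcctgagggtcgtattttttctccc

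The mitochondrially encoded genes took a share of the RNA that differed widely among the knockdown tumours, and the share of the nuclear genes varied less. The 12 genes made up 11.9%, 13.3%, 7.64%, 5.22%, 7.80%, 12.1%, 4.58%, 8.37% and 3.36% of all counts in knockdown tumours 1 to 9, against 4.21% and 5.37% in control tumours 1 and 2. Tumours 1, 2 and 6 stood highest, tumours 3, 5 and 8 between, and tumours 4, 7 and 9 lay near or below the controls. The 91 nuclear genes made up 0.842%, 0.878%, 0.855%, 0.826%, 0.828%, 0.835%, 0.992%, 1.02% and 0.729% of the counts outside the mitochondrial chromosome in the same knockdown tumours, against 0.655% and 0.839% in the controls. Here tumours 7 and 8 stood highest and the other knockdown tumours, apart from tumour 9, lay close to control 2. Among the knockdown tumours the highest mitochondrial share was 3.96 times the lowest, and the highest nuclear share was 1.4 times the lowest.

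**Figure D1:**
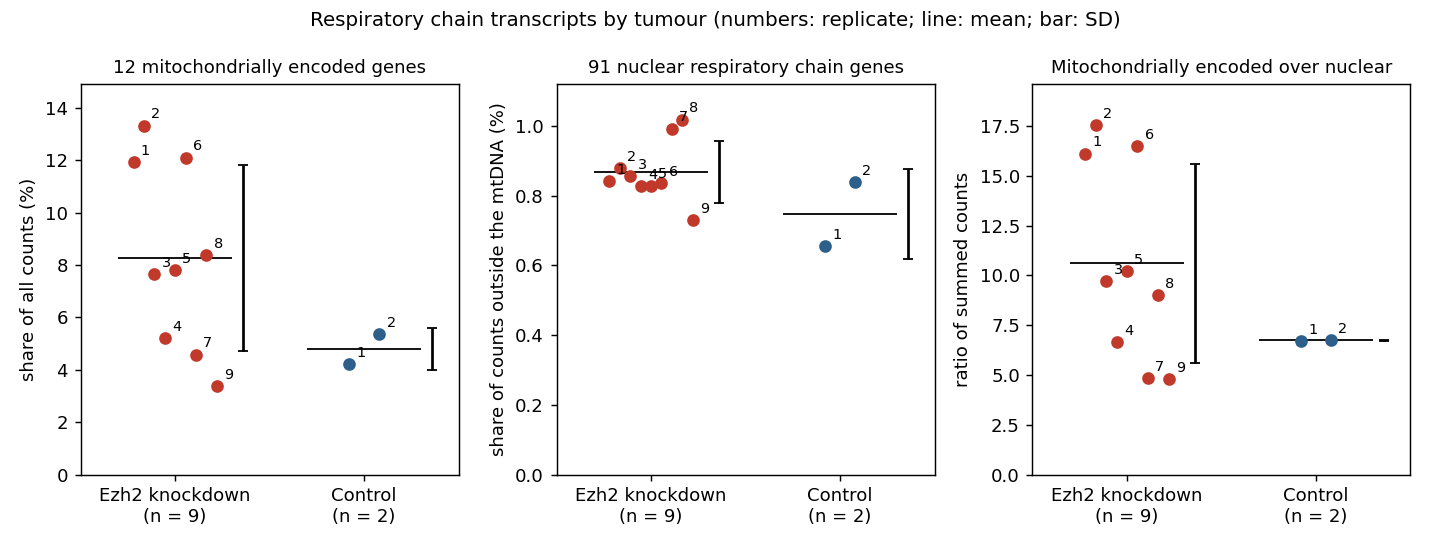
Share of counts on the 12 mitochondrially encoded genes (% of all counts), share on the 91 nuclear genes (% of counts outside the mitochondrial chromosome) and the ratio of the summed counts, with 1 point per tumour, its replicate number, the group mean (line) and SD (bar). The mitochondrial share spans 3.36% to 13.3% in the knockdown tumours, on either side of the controls at 4.21% and 5.37%.

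Neither share differed between the groups beyond the spread of the tumours. The mitochondrial share was 8.26% ± 3.55 in the knockdown tumours (SD, n = 9) and 4.79% ± 0.817 in the controls (SD, n = 2), a difference of 0.66 on the log2 scale. It was above both controls in 6 knockdown tumours and below both in 1 (exact two-sided permutation test over the 55 splits into 9 and 2, p = 0.236, adjusted over 3 such tests p = 0.355, where the smallest p the design allows is 0.018). The nuclear share was 0.867% ± 0.0882 in the knockdown tumours and 0.747% ± 0.130 in the controls (SD, n = 9 and n = 2), a log2 difference of 0.22, with 5 knockdown tumours above both controls and 0 below (exact permutation p = 0.109, adjusted p = 0.327). The ratio of mitochondrial to nuclear counts, which does not depend on library scaling, was 16.1, 17.5, 9.70, 6.67, 10.2, 16.5, 4.85, 9.00 and 4.78 in knockdown tumours 1 to 9, against 6.72 and 6.77 in the controls. The controls were thus nearly equal in the ratio and unequal in either share, while 6 knockdown tumours lay above and 3 below them (log2 difference 0.50, exact permutation p = 0.436).

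Within the knockdown group, the mitochondrial share was not shown to move with the nuclear share. Over the 9 tumours Pearson's r of the log2 shares was 0.21 (exact permutation p = 0.581, adjusted over 5 relations p = 0.726) and Spearman's rho 0.35 (exact permutation p = 0.359). Without tumours 2 and 9, the farthest from the median mitochondrial share, r was -0.35 (exact permutation p = 0.532). Without tumour 9 alone it was -0.31 and without tumour 2 alone 0.21 (exact permutation p = 0.456 and 0.616), so the sign of the relation rested on tumour 9. The summed share of 77 mitochondrial ribosomal protein genes, which are nuclear, gave r = 0.65 (exact permutation p = 0.047, adjusted p = 0.117; rho 0.55, exact permutation p = 0.133), and 0.15 without the same tumours. The mean log2 CPM of genes of mitochondrial transcription gave r = 0.70 (exact permutation p = 0.036, adjusted p = 0.117; rho 0.52, exact permutation p = 0.162), and 0.54 without them. Residual Ezh2 gave r = -0.11 (exact permutation p = 0.779, adjusted p = 0.779; rho -0.08, exact permutation p = 0.843) and total counts r = -0.39 (exact permutation p = 0.296, adjusted p = 0.493; rho -0.53, exact permutation p = 0.148), and without the same tumours they gave 0.34 and -0.48. For the transcription genes and Ezh2, CPM in these relations was scaled to counts outside the mitochondrial chromosome, without TMM factors. None of the 5 relations passed after adjustment, Spearman's included, whose adjusted p ran from 0.27 to 0.843.

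**Figure D2:**
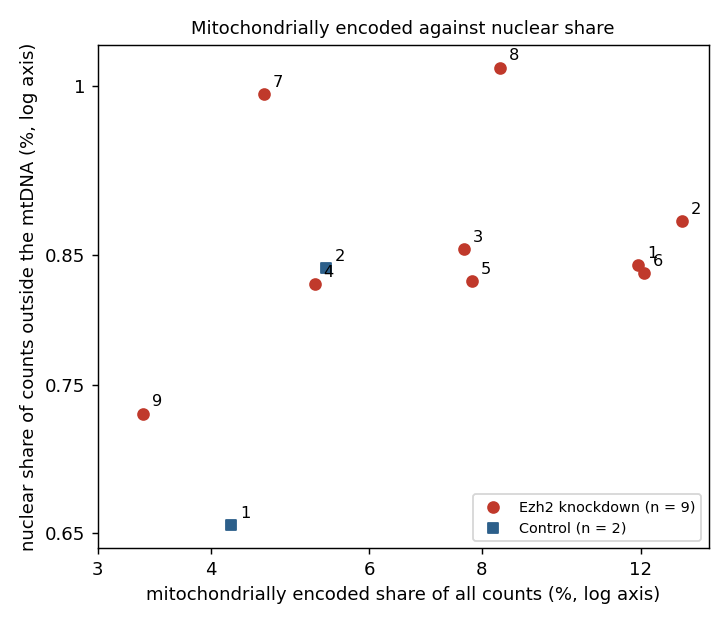
Nuclear respiratory chain share (% of counts outside the mitochondrial chromosome) against the mitochondrially encoded share (% of all counts), both on log axes, with 1 point per tumour and its replicate number. Tumours 7 and 9, at 4.58% and 3.36% on the horizontal axis, sit at 0.992% and 0.729% on the vertical one.

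The 12 mitochondrial genes varied together, each above its control level on average, and none passed the test. Their log2 fold changes were all positive, between 0.62 and 1.07 with a median of 0.79, against a median of 0.07 over all 16241 genes tested. With edgeR 0 of 12 were called, and 0 had an unadjusted p under 0.05, where 6027 of all genes tested had one. DESeq2 and limma-voom also called 0. Over all genes tested 3790 were called (23.3%), 1674 of them higher (10.3%) and 2116 lower (13.0%). The marker named for these genes, mt-Co1, is itself 1 of the 12, so its level is no check of the label. It took 23.8% to 28.7% of the 12 genes' counts in the knockdown tumours, against 28.7% and 26.9% in the controls.

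Among the genes of complex I, which takes electrons from NADH, mt-Nd3 had 1331, 1734, 967, 521, 811, 1456, 722, 1202 and 319 CPM in knockdown tumours 1 to 9, against 389 and 621 CPM in the controls. Its log2 fold change was 1.00 ± 0.53 (SE, adjusted p = 0.195), and 7 of 9 knockdown tumours were above both controls. The other complex I genes, mt-Nd1, mt-Nd2, mt-Nd4, mt-Nd5 and mt-Nd6, had log2 fold changes of 0.83 ± 0.53, 0.82 ± 0.54, 0.81 ± 0.59, 0.62 ± 0.53 and 0.64 ± 0.55. For mt-Nd5 and mt-Nd6 only 5 knockdown tumours were above both controls and 3 were below, whereas mt-Nd1, mt-Nd2 and mt-Nd4 had 6 above and 2 below. The gene mt-Nd4l was not analysed here.

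For complex III, which passes electrons from ubiquinol to cytochrome c, mt-Cytb ranged from 4505 CPM in tumour 9 to 20852 CPM in tumour 2 with a median of 11968 CPM in the knockdown tumours, against 6651 and 8477 CPM in the controls (log2 fold change 0.71 ± 0.58). The catalytic core of complex IV, which reduces oxygen, is made by mt-Co1, mt-Co2 and mt-Co3. mt-Co1, at 30146, 33680, 18029, 13900, 21999, 32579, 12364, 23937 and 7903 CPM in knockdown tumours 1 to 9, against 13183 and 14746 CPM in the controls, had a log2 fold change of 0.63 ± 0.53 (SE, adjusted p = 0.408). Its groups overlapped, with tumours 7 and 9 below both controls and tumour 4 between them. mt-Co2 and mt-Co3 had log2 fold changes of 0.77 ± 0.53 and 0.69 ± 0.48. For ATP synthase, mt-Atp8 had the largest log2 fold change of the 12, 1.07 ± 0.59 (SE, adjusted p = 0.212), at 209, 249, 115, 61.5, 132, 196, 80.0, 134 and 37.4 CPM in knockdown tumours 1 to 9, against 55.5 and 73.2 CPM in the controls. The gene that overlaps it, mt-Atp6, which makes a subunit of the proton channel, had a log2 fold change of 0.83 ± 0.47 (SE, adjusted p = 0.224).

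The level per length of the 12 genes kept much the same order in every tumour. Per kilobase of gene, mt-Co3 was highest, with a mean of 17298 ± 6692 CPM per kb in the knockdown tumours (SD, n = 9) and 10700 ± 1510 in the controls (SD, n = 2). It was followed by mt-Co1, mt-Co2, mt-Cytb and mt-Nd1, and each of these steps held in all 11 libraries. Then came mt-Nd4, below mt-Nd1 in 10 of 11 libraries, and mt-Nd2, below mt-Nd4 in all 11. Below these, mt-Nd3, mt-Nd6, mt-Nd5 and mt-Atp6 were not fully ordered, since mt-Nd2 exceeded mt-Nd3 in 9 libraries, mt-Nd3 exceeded mt-Nd6 in 4, mt-Nd6 exceeded mt-Nd5 in 10 and mt-Nd5 exceeded mt-Atp6 in 8. mt-Atp8 was lowest in all 11, at 661 ± 349 CPM per kb in the knockdown tumours and 315 ± 62 in the controls. The order is a description of these libraries.

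**Figure D3:**
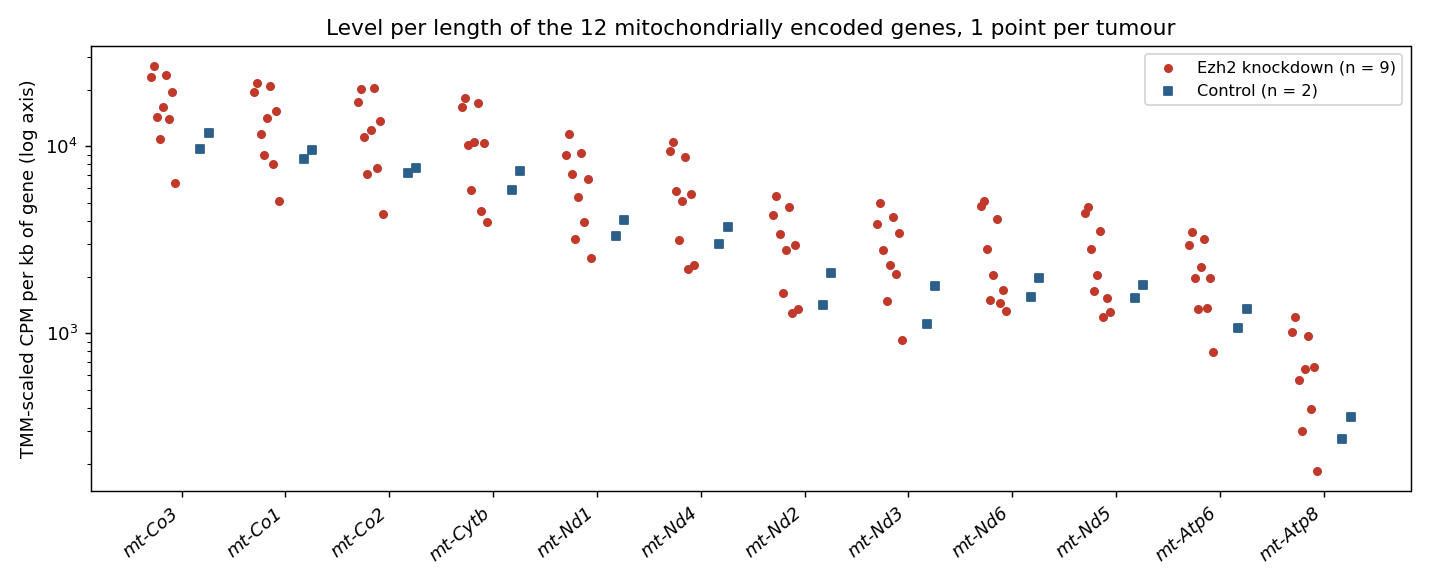
TMM-scaled CPM per kilobase of gene (log axis) for the 12 mitochondrially encoded genes, with 1 red circle per Ezh2 knockdown tumour and 1 blue square per control tumour. Levels fall from mt-Co3 to mt-Atp8, and for every gene knockdown tumours lie on either side of the controls.

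Within the mitochondrial counts, the make-up differed among the knockdown tumours, and different tumours held the extremes for different genes. The share of mt-Nd1 in the 12 genes' counts ran from 6.29% in tumour 4 to 8.99% in tumour 3, against 6.88% and 7.04% in the controls. The share of mt-Nd5 in the 12 genes' counts ran from 3.36% in tumour 8 to 7.54% in tumour 9, against 6.16% and 6.04% in the controls. The share of mt-Nd6, the one gene read from the other strand, ran from 1.05% in tumour 8 to 2.18% in tumour 9, against 1.78% and 1.88% in the controls. Since strand use in counting is not given, the counts of mt-Nd6 cannot be assigned to its own strand with certainty. Across the 9 knockdown tumours its log2 CPM had r = 0.99 with that of mt-Nd5. Tumour 7 had 23.5% of its mitochondrial counts on mt-Co3, where the knockdown median was 15.9% and the controls had 16.5% and 16.8%. Across the 9 knockdown tumours, the 66 pairs of mitochondrial genes had Pearson's r of log2 CPM between 0.76, for mt-Nd5 with mt-Co3, and 0.99, for mt-Nd2 with mt-Nd4, with a median of 0.94. These points share libraries and scaling and are given as a description. The mitochondrial rRNA genes made up 0.131% ± 0.035 of counts in the knockdown tumours (SD, n = 9) and 0.068% ± 0.004 in the controls (SD, n = 2), with 8 tumours above both controls and tumour 9 below both.

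Of the 91 nuclear members 86 passed the filter on low counts, and 7 of these were called (8.14%, where the share over all genes was 23.3%). There were 6 that rose, Ndufaf2, Ndufa5, Ndufb11 and Ndufc1 of the complex I family, Cox6b2 of complex IV and Atp5sl, and 1 that fell, Atp5g3 of ATP synthase. A further 9 had an unadjusted p under 0.05 without passing, which brought the total to 16 of 86, beside 6027 of 16241 over all genes. The 86 had a median log2 fold change of 0.14 and 61 were positive, beside 0.07 and 8841 of 16241 over all genes. This median rested on the controls too, at -0.012 without control 1 and 0.31 without control 2, where the medians over all genes were 0.08 and 0.11. All 9 knockdown tumours lay above both controls for 9 of the 86 members and below both for 1, where the shares over all genes were 13.3% and 13.8%. The number of calls likewise depended on the libraries. It was 14 without knockdown tumour 9, where 26.3% of all genes were called. It fell when either control was left out, but fewer genes were then called over the whole table too. Whether the fall was particular to the members was not tested.

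**Figure D4:**
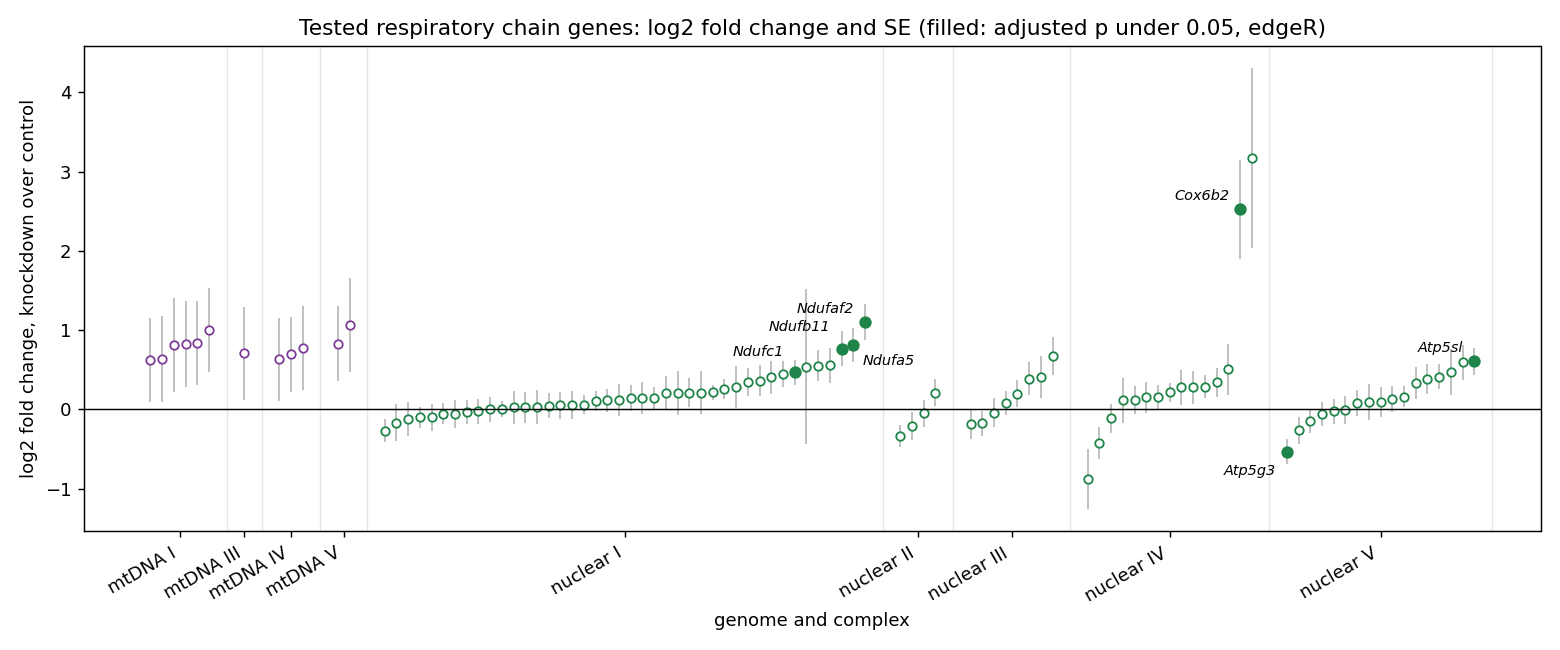
Log2 fold change of knockdown over control for the 12 mitochondrially encoded and 86 nuclear genes tested, by genome and complex, with SE bars; filled points passed an adjusted p of 0.05 (edgeR). The mitochondrially encoded genes lie between 0.62 and 1.07 with none filled, and most nuclear genes lie near 0, with 7 filled.

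Complex I is the largest of the chain, and 42 members carry its family names. Of these, 38 were counted as subunits, Ndufa4 and Ndufa4l2 among them by name alone, and 4 as assembly factors. In this family 4 rose and 0 fell (9.52%, where 10.3% of all genes rose and 23.3% were called in either direction). The median log2 fold change was 0.13. Ndufaf2, an assembly factor related to the subunit Ndufa12 (chr13:108842784-108948819 on mm9), was at 20.4, 23.6, 27.0, 25.4, 21.2, 22.4, 19.2, 22.1 and 15.1 CPM in knockdown tumours 1 to 9, against 8.15 and 12.1 CPM in the controls. Every knockdown tumour was above both controls, tumour 9 the least, and the log2 fold change was 1.11 ± 0.23 (SE, edgeR adjusted p = 0.0059). Without control 1 it was 0.85 and not called (adjusted p = 0.100, where p over 21 alternatives ran from 2.8e-05 to 0.100). The other assembly factors of the family, Ndufaf1, Ndufaf3 and Ndufaf4, had log2 fold changes of 0.03 ± 0.19, 0.21 ± 0.28 and 0.12 ± 0.20, and without control 1 those of Ndufaf1 and Ndufaf4 were -0.23 and -0.19.

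Ndufa5, an accessory subunit of the peripheral arm (chr6:24468666-24478013 on mm9), was at 58.8, 60.5, 48.0, 51.7, 51.6, 52.8, 52.3, 69.1 and 34.7 CPM in knockdown tumours 1 to 9, against 25.5 and 35.2 CPM in the controls. Tumour 9 lay between the controls and the other 8 above them (log2 fold change 0.81 ± 0.22, adjusted p = 0.020). Without control 1 it was 0.60 and not called (adjusted p = 0.233, the highest over 21 alternatives, where the lowest was 0.0041). Ndufb11, an X-linked accessory subunit of the membrane arm (chrX:20192452-20194745 on mm9), was at 98.4, 114, 85.9, 104, 103, 96.4, 133, 148 and 79.8 CPM, against 52.9 and 72.9 CPM, with no overlap (log2 fold change 0.76 ± 0.22, adjusted p = 0.029). It overlaps Rbm10 by 117 bases, and the tumours differed in Xist, the RNA of the inactive X, which was above 10 CPM in 5 knockdown tumours and in both controls and at most 1.1 CPM in the others. Over those 7 libraries alone the log2 fold change of Ndufb11 was 0.65. The call was lost without control 1, at 0.55, and without control 2, at 1.01 (adjusted p = 0.292 and 0.060, where p over 21 alternatives ran from 0.011 to 0.292). Ndufc1, a small membrane arm subunit, had a median of 36.9 CPM and a range of 32.7 to 46.1 CPM in the knockdown tumours, against 23.9 and 31.8 CPM in the controls. Its call (log2 fold change 0.47 ± 0.15, adjusted p = 0.047) lay close to the threshold and was lost in 17 of 21 alternative settings, among them the removal of any 1 library other than knockdown tumour 9. The log2 fold change was 0.27 without control 1 and 0.68 without control 2, and between 0.42 and 0.48 without any 1 of knockdown tumours 1 to 8.

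Complex II, which oxidises succinate as part of the tricarboxylic acid cycle, had 4 members and 0 called. Sdha, its flavoprotein, was at 137 to 192 CPM in the knockdown tumours with a median of 153 CPM, against 187 and 221 CPM in the controls, with 8 of 9 below both controls (log2 fold change -0.34 ± 0.14, adjusted p = 0.094). The membrane anchors Sdhd and Sdhc had log2 fold changes of 0.21 ± 0.17 and -0.21 ± 0.18, both with an adjusted p of 0.40. As a share of counts outside the mitochondrial chromosome, complex II had 0 knockdown tumours above both controls and 0 below, whereas the nuclear parts of complexes I and IV had 8 above, complex III 7 and complex V 3. Across the 9 knockdown tumours, as a description over points that share libraries, the summed levels of complexes I and IV had r = 0.99, and those of complexes II and IV r = 0.59.

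Complex III had 8 nuclear members and 0 called. Uqcr10, one of its smallest subunits, was at 56.1 to 118 CPM in the knockdown tumours with a median of 88.5 CPM, against 45.1 and 65.3 CPM in the controls, with 8 of 9 above both controls (log2 fold change 0.67 ± 0.24, adjusted p = 0.057). It was called without tumour 3, at 0.71, and without tumour 9, at 0.74. Uqcrb, which binds near the ubiquinone site, had a log2 fold change of 0.39 ± 0.21 (adjusted p = 0.20). Cyc1, cytochrome c1 of this complex, is not taken in by the family names.

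Complex IV had 19 nuclear members by symbol, 18 of them subunits, and 15 were tested. Of these 1 rose and 0 fell (6.67%, where 23.3% of all genes were called). Cox6b2, an isoform of Cox6b known from testis (chr7:4703396-4704696 on mm9), was at 8.07, 12.8, 3.04, 8.43, 11.8, 11.5, 12.1, 20.7 and 5.57 CPM in knockdown tumours 1 to 9, against 2.00 and 1.63 CPM in the controls. No knockdown tumour reached down to the controls, and tumour 3 came nearest (log2 fold change 2.52 ± 0.62, adjusted p = 0.014). The call was lost without control 1, at 2.67, and without control 2, at 2.38 (adjusted p = 0.102 and 0.109, where p over 21 alternatives ran from 8.7e-05 to 0.109). Its widely expressed counterpart Cox6b1 had means of 164 ± 29.5 CPM in the knockdown tumours and 148 ± 23.0 CPM in the controls (SD, n = 9 and n = 2; log2 fold change 0.15 ± 0.19). Cox6b2 thus took 2.36% to 8.93% of the counts of this pair in the knockdown tumours, against 1.5% and 0.982% in the controls.

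Cox4i2, the isoform of Cox4 known from lung and from low oxygen, was at 3.92, 3.37, 2.28, 13.9, 10.1, 5.18, 32.9, 8.84 and 2.46 CPM in knockdown tumours 1 to 9, against 0.769 and 1.25 CPM in the controls. All 9 were above both controls, tumour 7 the most, and the log2 fold change of 3.17 ± 1.14 did not pass (adjusted p = 0.062). It was called without tumour 3, 7 or 9, at 3.30, 2.59 and 3.30. Cox4i1, the main isoform, had a log2 fold change of -0.11 ± 0.18, so that Cox4i2 took 0.986% to 9.19% of the counts of the pair in the knockdown tumours, against 0.329% and 0.449% in the controls. Cox7a1, the isoform of striated muscle, was at 0.483 to 1.37 CPM in the knockdown tumours, against 1.15 and 2.38 CPM in the controls (log2 fold change -0.88 ± 0.38, adjusted p = 0.112). It took 0.478% to 1.36% of the counts it shares with Cox7a2 in the knockdown tumours, against 1.72% and 2.32% in the controls, and these shares did not overlap. Cox7a2, Cox6a1 and Cox8a, the widely expressed isoforms, had log2 fold changes of 0.28 ± 0.20, 0.15 ± 0.16 and 0.34 ± 0.18.

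The members that missed the filter were Cox6a2, Cox7b2, Cox8b, Cox8c and Atp5l-ps1, which the symbol pattern takes in although its name is that of a pseudogene. Cox6a2, a muscle isoform, reached at most 0.644 CPM in the knockdown tumours and 0.308 CPM in the controls. Cox8b had 0 counts in all 11 libraries, where 3 counts correspond to between 0.162 and 0.273 CPM.

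Ndufa4 and Ndufa4l2 carry complex I names, although Ndufa4 is now held to be a subunit of complex IV and Ndufa4l2 is its paralog known from low oxygen. Ndufa4 was at 126 to 181 CPM in the knockdown tumours, against 76.2 and 128 CPM in the controls (log2 fold change 0.55 ± 0.19, adjusted p = 0.057), and it was called without control 2, at 0.97, and without tumour 9, at 0.58. Ndufa4l2 was at 3.92, 2.80, 2.14, 14.9, 14.5, 8.36, 30.5, 9.97 and 1.06 CPM in knockdown tumours 1 to 9, against 8.08 and 5.45 CPM in the controls, so the groups overlapped (log2 fold change 0.54 ± 0.98, adjusted p = 0.721). The knockdown tumours ranked alike in Ndufa4l2 and Cox4i2 at the top, where tumours 7, 4 and 5 held the 3 highest values of both. Of 10 genes of the hypoxia response 7 fell and 0 rose, where 13.0% of all genes fell, Car9, a carbonic anhydrase, and Pdk1, which inhibits pyruvate dehydrogenase, among them (log2 fold changes -2.34 ± 0.60 and -1.18 ± 0.35). Their summed level was 844 to 2926 CPM in the knockdown tumours, highest in tumour 7, against 4207 and 2148 CPM in the controls. The summed level of 6 pericyte or smooth muscle markers was 441 to 1241 CPM in the knockdown tumours, against 384 and 470 CPM in the controls, with 533 CPM in tumour 7. Its members did not move as the sum did, since Pdgfrb rose (log2 fold change 2.22 ± 0.49), Tagln and Cnn1 fell (-1.59 ± 0.32 and -2.31 ± 0.52) and the median over the 6 was -0.67. The calls of Tagln and Cnn1 were lost without control 1, at -1.45 and -1.28, and that of Pdgfrb without either one of the controls, at 2.33 and 2.12. The part of either list in the levels of Cox4i2 and Ndufa4l2 was not tested.

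ATP synthase had 18 members by symbol, of which 17 were tested, 1 rose and 1 fell (11.8%, where 23.3% of all genes were called). Atp5g3 is 1 of 3 genes that encode the same mature c subunit of the membrane ring with different import sequences. It was at 176, 160, 184, 123, 153, 139, 182, 198 and 148 CPM in knockdown tumours 1 to 9, against 219 and 251 CPM in the controls (chr2:73746504-73749383 on mm9). All 9 knockdown tumours lay below both controls, and it fell by 0.53 ± 0.16 on the log2 scale (SE, adjusted p = 0.030). The call was lost without control 1, at -0.63, and without control 2, at -0.44 (adjusted p = 0.106 and 0.224, where p over 21 alternatives ran from 0.010 to 0.224). Atp5g2 was at 118, 111, 112, 98.9, 99.4, 101, 116, 117 and 59.7 CPM in knockdown tumours 1 to 9, against 81.4 and 83.3 CPM in the controls, with tumour 9 alone below them (log2 fold change 0.33 ± 0.20, adjusted p = 0.256), and without tumour 9 it was called at 0.41 (adjusted p = 0.018, where p over 21 alternatives ran from 0.018 to 0.559). Atp5g1 had a log2 fold change of -0.02 ± 0.16.

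As shares of the 3 c subunit genes' counts, which do not depend on library scaling, the groups separated for Atp5g3 and Atp5g2. These 2 shares largely mirror each other, since Atp5g1 took few of the counts. Atp5g3 made up 57.6% ± 4.22 in the knockdown tumours (SD, n = 9), from 51.5% in tumour 4 to 66.8% in tumour 9, and 70.4% ± 1.48 in the controls (SD, n = 2). Atp5g2 made up 36.6% ± 4.09 in the knockdown tumours, from 27.0% in tumour 9 to 41.3% in tumour 4, and 24.7% ± 1.42 in the controls. Atp5g1 made up 5.72% ± 0.848 in the knockdown tumours and 4.85% ± 0.052 in the controls. Of the 8 isoform shares computed, 3 were above both controls in all 9 knockdown tumours, 2 were below both in all 9 and 3 overlapped. Over all genes tested, 13.3% were above both controls in all 9 in CPM, and 13.8% below. The 8 shares cannot be weighed against these figures. They are not independent, because within a subunit a higher share for a gene lowers the others' shares. The Atp5g and Cox6b sets were also added as relatives of Atp5g3 and Cox6b2, which had been called in this same comparison. The overlapping ones were those of Atp5g1, Ndufa4l2 and Cox6a2, the last with 3 knockdown tumours above both controls and 0 below. The isoform shares of the pairs and of the c subunit were described and not tested, and counting may have divided or dropped reads of such close paralogs.

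**Figure D5:**
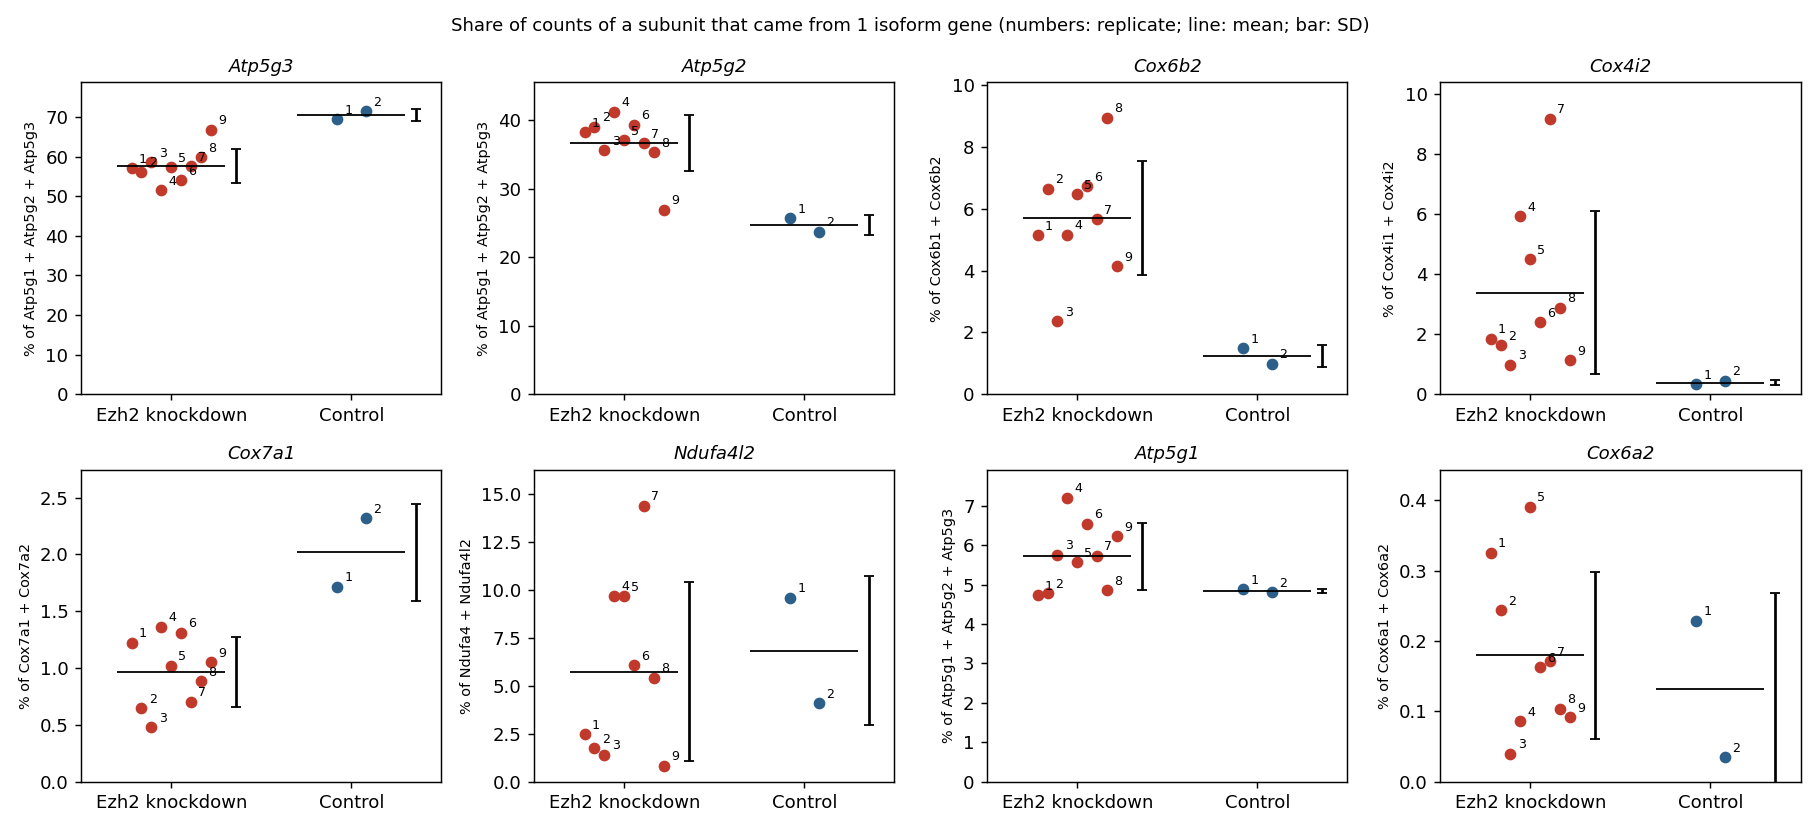
Share of a subunit's counts (%) that came from Atp5g3, Atp5g2, Cox6b2, Cox4i2, Cox7a1, Ndufa4l2, Atp5g1 or Cox6a2, with 1 point per tumour, its replicate number, the group mean (line) and SD (bar). The groups do not overlap for the first 5 genes, with knockdown lower for Atp5g3 and Cox7a1 and higher for Atp5g2, Cox6b2 and Cox4i2, and they overlap for Ndufa4l2, Atp5g1 and Cox6a2, whose control bar is cut at 0.

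Atp5sl carries an ATP synthase name but is listed by RefSeq as Dmac2, an assembly factor of the distal membrane arm of complex I. It rose, at 20.2, 17.9, 15.5, 21.9, 15.4, 17.7, 17.4, 17.9 and 17.3 CPM in knockdown tumours 1 to 9, against 11 and 12.5 CPM in the controls, with no overlap (log2 fold change 0.61 ± 0.17, adjusted p = 0.023). The call was lost without control 1, at 0.51, and without control 2, at 0.70 (adjusted p = 0.205 and 0.081, where p over 21 alternatives ran from 0.0037 to 0.205). Without the assembly factors and the other genes the symbol pattern takes in beside the complexes, 4 of 79 nuclear subunits rose and 1 fell (6.33%).

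The tested nuclear members differed widely in how they moved with the mitochondrial share of their tumour. Across the 9 knockdown tumours, the 86 had a median r of 0.25 with the log2 mitochondrial share, from -0.71 to 0.75, and 64 were positive. With the log2 nuclear share the median r was 0.72 and 78 were positive, but each member is a part of that share, so the 2 medians are not comparable. For the members' levels, CPM here was scaled to counts outside the mitochondrial chromosome, without TMM factors. These correlations share libraries and scaling and are descriptions.

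Genes that serve the chain without being members were read from lists of their roles, and few of these lists had a share of calls near the 23.3% of all genes or above it. Of 26 tested assembly factors 2 rose and 0 fell (7.69%), Cox10, which makes heme for complex IV (log2 fold change 0.59 ± 0.15, adjusted p = 0.019), and Atpaf1, an assembly factor of ATP synthase (0.62 ± 0.16, adjusted p = 0.019). Of 15 genes of the electron carriers ubiquinone and cytochrome c 0 passed, with Coq6 at 0.40 ± 0.14 and Pdss2 at 0.65 ± 0.23. Of 9 genes of mitochondrial transcription 1 rose (11.1%), Tfam, which packages mitochondrial DNA and starts its transcription. Tfam was at 62.4, 64.3, 61.1, 67.6, 59.9, 61.8, 56.4, 69.2 and 49.7 CPM in knockdown tumours 1 to 9, against 44.4 and 42.5 CPM in the controls (log2 fold change 0.50 ± 0.13, edgeR adjusted p = 0.015). Tumours 7 and 9, whose mitochondrial shares were among the lowest, had the lowest Tfam levels of the 9, still above both controls. A relation of Tfam alone with the mitochondrial share was not tested. Of 18 genes of mitochondrial RNA handling 0 passed, with Hsd17b10 at 0.45 ± 0.17 and Pnpt1 at 0.34 ± 0.14.

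Among 15 genes of mitochondrial DNA maintenance, 1 rose and 3 fell, a share of 26.7% that is close to the 23.3% over all genes. Rnaseh1, which removes RNA primers, rose (0.49 ± 0.15, adjusted p = 0.030). Rrm2b, a p53-regulated ribonucleotide reductase subunit that supplies nucleotides, was at 12.1 ± 1.64 CPM in the knockdown tumours and 32.7 ± 5.72 CPM in the controls (SD, n = 9 and n = 2; log2 fold change -1.43 ± 0.17, adjusted p = 0.00027), and Slc25a33, a pyrimidine nucleotide carrier, fell by 1.22 ± 0.23 on the log2 scale. Of 12 regulators of biogenesis 2 were called (16.7%), of which Ppara rose (1.59 ± 0.46) and Esrrg fell (-2.33 ± 0.41), both at low levels under 6 CPM. Of 17 genes of the tricarboxylic acid cycle 3 were called (17.6%), of which Suclg2 rose (0.55 ± 0.17) and Idh2 and Cs fell (-0.44 ± 0.11 and -0.41 ± 0.12). Of 9 carriers and outer membrane genes 2 fell (22.2%), Tomm22, an import receptor at 26.0 ± 4.58 CPM in the knockdown tumours and 89.3 ± 2.77 CPM in the controls (log2 fold change -1.78 ± 0.16, adjusted p = 6.2e-05), and Tomm40, the import pore (-0.42 ± 0.13). Of 75 mitochondrial ribosomal protein genes 6 rose and 1 fell (9.33%), and of 82 cytosolic ones 0 rose and 2 fell (2.44%).

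The calls in these lists also rested on the pair of controls, and with either left out fewer were called over all genes too. Of the 15 called genes named from the lists above, cell type markers apart, the calls of Rrm2b, Slc25a33 and Tomm22 were kept when control 1 was left out and when control 2 was left out. Esrrg lost its call without control 2, at -1.84, and Tomm40 without control 1, at -0.26, as well as without knockdown tumour 2, 4 or 5. Car9 and Pdk1 lost it without control 1, at -1.78 and -0.57. Rnaseh1 also lost it without tumour 2, and Cs without tumour 1, 2 or 5. Cox10, Atpaf1, Tfam, Ppara, Suclg2, Idh2, Rnaseh1 and Cs lost it when either one of the controls was left out, with Tfam at 0.53 without control 1 and 0.46 without control 2. Coq6 was called without tumour 7, at 0.39, and Hsd17b10 likewise, at 0.35.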

How the data were processed

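The deposited table holds whole-number counts of reads per Ensembl gene, as its values show. Per the submitters' processing notes, TopHat 1.4.0 and HTSeq with the build mm9 were used, while strand use and other settings are not given in those sources. Per the labels' protocols, TRIzol total RNA went into TruSeq libraries for a HiSeq2000. Counts were tested with edgeR 4.0.16 in R 4.3.3 (filterByExpr by group, TMM, quasi-likelihood F-test, Benjamini-Hochberg over 16241 genes, threshold 0.05), with 9 knockdown tumours against 2 controls. The SE is the log2 fold change over the square root of F. The script was tested on simulated data. Shares were compared by exact permutation, and alternatives included DESeq2 1.42.0 and limma 3.58.1. Chi-square per degree of freedom between replicates was at least 11.2, so no library was a copy of another.

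Members and lists were chosen with earlier results of these data known. Named were all mitochondrial members, every called nuclear member, the 2 with the smallest p of complexes without one, set isoforms, members under the filter, and up to 4 genes of a list. Ndufa4, Atp5g1, Atp5g2, Cox6b1 and Ndufaf1, Ndufaf3 and Ndufaf4 were added after their values were seen, as relatives of named genes. Reference sequences came from GRCm38 (GENCODE M21) and RefSeq.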

Additional observations from a re-analysis of the deposited data

Results flagged for a closer look

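All 5 flagged values belong to knockdown tumour 7, whose gap to the nearest knockdown tumour, divided by the range of the 9, exceeded Dixon's critical value of 0.493. Of 46 values checked in this way, 5 were flagged, and chance flags about 1 in 20. Ndufa4l2 was at 30.5 CPM in this tumour, and Cox4i2 at 32.9 CPM. Of its mitochondrial counts, 6.56% were on mt-Nd4, 11.1% on mt-Cytb and 23.5% on mt-Co3, where the knockdown medians were 9.86%, 15.3% and 15.9%.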

How the results depend on the processing

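The direction was kept in all alternatives by the mitochondrial share (16), by the nuclear share and by the ratio (17 each), and the side of the threshold in the 14, 15 and 15 in which it could be crossed. With 1 control left out, the 10 splits allow no p below 0.1, so those 2 alternatives say nothing of the threshold. Leaving out 1 library gave log2 differences of 0.49 to 0.84, 0.040 to 0.40 and 0.39 to 0.62. The mitochondrial genes called stayed at 0 when any 1 library was left out and in 18 of 21 alternatives in all. There was 1 over the libraries with Xist above 1 CPM, and with a replicate block over tumours and controls 1 and 2 there were 4, against 12 in the same 4 libraries without the block, of which tumours 1 and 2 had mitochondrial shares of 11.9% and 13.3%. The nuclear genes called numbered 11 with DESeq2 (10 higher, 1 lower), 20 with Xist above 1 CPM (12 higher, 8 lower), 13 with Xist above 10 CPM (9 higher, 4 lower), 0 with the replicate block, 4 in its 4 libraries without the block, and 0 to 14 when 1 library was left out; over all genes the percentages called in these fits were 29.9%, 33.9%, 29.3%, 4.87%, 16.4% and between 7.61% and 26.3%. Deviations of same-numbered samples from their group means correlated at -0.15 and 0.01. With only 2 controls, their deviations mirror each other, so these values cannot decide whether the replicate numbers pair the samples.

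The relation of the shares turned to r = -0.35 without the 2 tumours farthest from the median, to -0.17 with the nuclear share of all counts, and ran from -0.31, without tumour 9, to 0.53 when 1 tumour was left out. Among the genes given these alternatives, uncalled log2 fold changes that turned sign were those of Cox4i1 (-0.24 to 0.015 when 1 library was left out, highest without control 2), Cox6a1 (-0.043 to 0.37, lowest without control 1), Ndufa4l2 (-0.028 with limma-voom, -1.04 with the block and -1.04 without it in the same libraries), Ndufaf1 (-0.23 to 0.33, lowest without control 1; -0.0087 with RLE scaling, -0.014 with DESeq2 and -0.0036 in the 4 libraries without the block), Ndufaf3 (-0.026 with the block and -0.025 without it), Ndufaf4 (-0.19 to 0.50, lowest without control 1), Cox6b1 (-0.0016 to 0.31, lowest without control 1) and Atp5g1 (-0.087 to 0.040, highest without control 2 and positive also without tumour 2 or 9; 0.0053 with upper quartile scaling). The causes were not tested. The fits over libraries chosen by Xist above 10 CPM and without the block were added after seeing the data. Depth, at 11209233 counts or more, limits what can be read from the low isoforms and the 5 members under the filter. Its part in their low counts was not tested. A p that misses the threshold does not show that levels were equal.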
